A study of Mus musculus with 4 samples.

Results

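The comparison described here is the 3-day differentiation of Seh1-depleted mouse neural stem cells: the depleted library taken at day 3 against the depleted library taken at day 0. These are 2 of the 4 libraries of the series, chosen by their titles and not by any measured value, and the other 2 are the control cells at the same days. The cells were primary cultures of neural stem cells, taken from newborn mouse cortex. Day 0 cells were kept in a growth medium with 20 ng/ml EGF and 20 ng/ml bFGF, and day 3 cells had been deprived of both factors to let them differentiate. All 4 groups carry floxed Seh1 alleles (Seh1 f/f). The depleted groups (iKO) also carry cmv-cre-ert, a Cre recombinase fused to an estrogen receptor domain and named for the CMV promoter, which is active in many cell types, and the control groups (Ctrl) carry no recombinase. Not given in the sources used here are any inducer, the number of mice behind each culture and their pooling.

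Neural stem cells of the cortex divide as long as EGF and FGF receptors are stimulated, and when these factors are removed they leave the cell cycle and form astrocytes, oligodendrocyte precursors and neurons. Newborn cortical cultures are biased towards glia. Seh1, the product of Seh1l, is a subunit of the Y complex, a scaffold of the nuclear pore, and also of GATOR2, a complex that lets amino acids activate the kinase mTORC1. The Y complex also works at kinetochores in mitosis.

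Each group has 1 library, so nothing below is checked against a replicate, and p-values are not given. The libraries held between 19611747 and 21040586 expected counts after summing over the transcripts of each gene and rounding. A level is given as CPM, a share of the library total on the usual scale of that unit, after TMM scaling, which adjusts the library totals so that most genes keep the same level. A change is the log2 ratio of CPM + 1 at day 3 to CPM + 1 at day 0, a scale that understates the change of low genes. A gene is said to have risen or fallen, or to be called, when that ratio reached 2-fold. A fold without the words log2 is the plain ratio of CPM, and the range in brackets after it is its 95% counting interval. These intervals cover counting error only, not the spread between cultures. Of 17621 genes, 13012 had a mean of at least 1 CPM over both iKO libraries and are called measured. For 578 of these the level was under 1 CPM at one of the days, and 337 of the 578 were called, as genes that pass the minimum through their higher library tend to be.

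The targeted gene and the transgene were read first. Seh1l stood at 19.2 CPM in the iKO library of day 0 and 11.03 CPM in that of day 3, against 40.3 and 33.2 CPM in Ctrl. It was lower in iKO than in Ctrl at both days, and within iKO it was 1.74-fold lower at day 3 (1.47 to 2.07), short of the 2-fold mark. Esr1, the estrogen receptor gene whose sequence the recombinase fusion contains, stood at 88.3 and 122 CPM in iKO and at 0.0492 and 0.0995 CPM in Ctrl. The Esr1 counts therefore follow the genotype labels in all 4 libraries.

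Over 3 days 1484 genes rose in iKO, 11.4% of those measured, and 1488 fell, also 11.4%. Together 22.8% of the measured genes were called in iKO. In Ctrl 14.3% of the same genes rose and 15.0% fell, 29.2% in all. The counts given for gene lists below are to be read beside these shares. With the deposited FPKM in place of scaled counts the split in iKO was 936 higher and 1473 lower. The median log2 ratio of all measured genes was -0.00378 in iKO and -0.02 in Ctrl, and 49.8% and 49.0% of genes lay above 0. Scaling by library totals moves these medians to -0.13 in iKO and 0.05 in Ctrl.

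The changes in iKO had the same direction as in Ctrl for most of the genes called in iKO. Of the genes that rose in iKO, 1045 also rose in Ctrl, 70.4% of the iKO list and 56.3% of the Ctrl list. Of those that fell in iKO, 1174 also fell in Ctrl, 78.9% of the iKO list and 60.2% of the Ctrl list. The ratios of the genotypes share no library, and their Pearson correlation across the 13012 genes was 0.843, a description over genes that are not independent replicates. The median absolute log2 ratio was 0.50 in iKO and 0.61 in Ctrl. Rises of at least 8-fold on the CPM + 1 scale numbered 68 in iKO and 119 in Ctrl, and falls of that size 141 and 247.

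**Figure D1:**
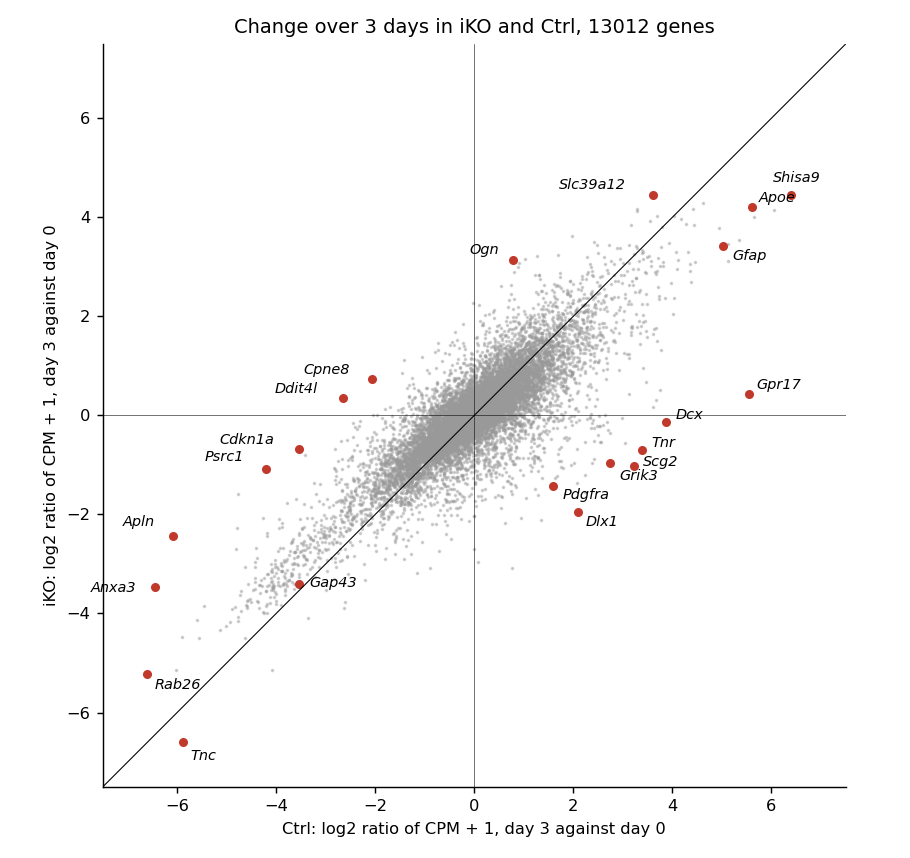
Each grey point is 1 of 13012 genes, with the log2 ratio of CPM + 1 at day 3 to day 0 in Ctrl on the horizontal axis and in iKO on the vertical axis, and red points are genes named in the text. The diagonal marks equal change: Tnc and Rab26 lie low in both genotypes, Apoe and Shisa9 high in both, Cdkn1a and Apln above the diagonal, and Gpr17, Dcx and Dlx1 below it.

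Of the 12 largest rises in iKO, those of Apoe, Aqp4 and Gjb6 were of genes on the astrocyte list described further on. Apoe, the main lipid carrier that astrocytes secrete (chromosome 7, 19696244 to 19701310, GRCm38.p6), went from 656 to 12096 CPM in iKO, 18.4-fold higher (18.1 to 18.8), and from 138 to 6765 CPM in Ctrl. Slc39a12, a zinc importer of brain (chromosome 2, 14388316 to 14494977), went from 10.3 to 247 CPM in iKO and from 4.08 to 61.0 CPM in Ctrl. Aqp4, the water channel of astrocyte endfeet, went from 48.4 to 767 CPM in iKO and from 20.6 to 388 CPM in Ctrl. All 3 were higher in iKO than in Ctrl at both days and rose in both genotypes.

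The other rises among the 12 follow with their log2 ratios in iKO. Shisa9, an auxiliary subunit of AMPA receptors, had the largest log2 ratio, 4.46, with 3.62 and 101 CPM in iKO against 0.787 and 149 CPM in Ctrl. Reln, the secreted guidance protein reelin, had a log2 ratio of 4.29, and Gpc5, a heparan sulfate proteoglycan, 4.12. Cldn10, a claudin of tight junctions, and Eva1a, a regulator of autophagy, both had 4.17. Pla2g7, a secreted lipase that degrades platelet-activating factor, had 4.02 at a high level, 192 and 3136 CPM. C4b, a complement component, had 4.01. Abhd3, a phospholipase, had 4.15, and Gjb6, the astrocyte gap junction protein connexin 30, had 4.04.

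The largest fall in iKO was that of Tnc, tenascin C, a matrix glycoprotein of the stem cell niche (chromosome 4, 63959785 to 64047015). It went from 1014 to 9.54 CPM in iKO, 106-fold lower (91.8 to 124), and from 1029 to 16.4 CPM in Ctrl. Rab26, a GTPase of secretory vesicles, went from 128 to 2.44 CPM in iKO and from 120 to 0.249 CPM in Ctrl. Nptx2, a secreted pentraxin that clusters glutamate receptors, went from 198 to 4.61 CPM in iKO and from 293 to 16.2 CPM in Ctrl. Angpt2, an angiopoietin, went from 98.0 to 1.802 CPM in iKO and from 76.7 to 0.199 CPM in Ctrl.

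These 4 genes stood high at day 0 and low at day 3 in both genotypes. The remaining 8 of the 12 largest falls had log2 ratios between -4.50 and -4.13. They were the PCNA-binding factor Pclaf, Golga7b, the hedgehog ligand Dhh, the basement membrane collagen Col18a1, the mitotic regulator Pimreg, the matrix protein Fbln2, the anaphase activator Cdc20 and the thymidine kinase Tk1. Tk1 and Cdc20 are also members of the cell cycle lists described next.

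All measured genes of the mitosis and DNA replication lists fell in both genotypes. In the mitosis list 25 of 25 measured genes fell in iKO, with a median log2 ratio of -3.63 and a range from -4.15 to -2.97, and 25 of 25 fell in Ctrl, with a median of -4.09. In the DNA replication list 25 of 25 fell in iKO, median -2.55, and 25 of 25 in Ctrl, median -3.33. Of all measured genes 11.4% fell in iKO. The summed level of the mitosis genes went from 3578 to 276 CPM in iKO and from 5977 to 314 CPM in Ctrl. That of the replication genes went from 2802 to 452 CPM in iKO and from 4764 to 449.6 CPM in Ctrl. At day 0 both sums were lower in iKO, and at day 3 the genotypes lay close together. In bulk RNA such as this, fewer cells of a kind and less RNA per cell cannot be told apart.

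Among the mitosis genes, Cdc20 went from 169 to 8.53 CPM in iKO, 19.8-fold lower (16.9 to 23.3). Cdca8, the borealin subunit of the chromosomal passenger complex, was 20.0-fold lower (16.2 to 24.9). Bub1, a kinase of the spindle checkpoint, was 21.6-fold lower (16.3 to 29.3). Ube2c, which hands ubiquitin to the anaphase-promoting complex, went from 145 to 9.44 CPM. Mki67, the gene of the proliferation marker Ki-67, went from 533 to 43.0 CPM and Cdk1, the kinase that starts mitosis, from 125 to 9.81 CPM. The smallest fall of the list was that of Cenpf, a kinetochore protein, at -2.97.

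Among the replication genes, Tk1 was 23.9-fold lower (18.0 to 32.6) and Rrm2, the regulated subunit of ribonucleotide reductase, went from 428 to 27.5 CPM. Mcm6, a subunit of the replicative helicase, went from 154 to 10.9 CPM in iKO and from 304 to 12.1 CPM in Ctrl. Mcm5, of the same helicase, went from 130 to 11.3 CPM in iKO. The clamp loader subunit Rfc3 had the smallest change, -1.28.

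Genes of these lists are known to be read from promoters with 3 short motifs, and 150 bases before the RefSeq start of 4 members are printed here because their genes fell most among list members that hold the motifs in a stretch outside the gene's own span in the annotation. In Cdc20 and Ube2c capitals mark the cell cycle homology region (TTTGAA or TTCGAA) and the CCAAT box on either strand, so that a match on the other strand reads TTCAAA or ATTGG. In Mcm6 and Prim1, the catalytic subunit of DNA primase (37.2 to 4.93 CPM in iKO), capitals mark E2F sites (TTCCCGC or TTGGCGC, or their complement). The windows are chr4:118437344-118437493 on the minus strand, chr2:164769779-164769928 on the plus strand, chr1:128359706-128359855 on the minus strand and chr10:128015065-128015214 on the plus strand, all GRCm38.p6 and all 5′ to 3′ in the direction of the gene.
Cdc20: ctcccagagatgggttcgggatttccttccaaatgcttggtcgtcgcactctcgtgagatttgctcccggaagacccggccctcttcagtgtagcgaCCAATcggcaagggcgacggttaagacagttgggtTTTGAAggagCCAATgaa
Ube2c: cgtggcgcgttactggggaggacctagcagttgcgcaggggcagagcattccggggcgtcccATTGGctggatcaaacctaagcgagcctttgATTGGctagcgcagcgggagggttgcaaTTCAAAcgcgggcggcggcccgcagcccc
Mcm6: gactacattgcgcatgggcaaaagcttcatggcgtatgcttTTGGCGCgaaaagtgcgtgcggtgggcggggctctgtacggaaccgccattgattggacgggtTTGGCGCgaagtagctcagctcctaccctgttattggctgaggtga
Prim1: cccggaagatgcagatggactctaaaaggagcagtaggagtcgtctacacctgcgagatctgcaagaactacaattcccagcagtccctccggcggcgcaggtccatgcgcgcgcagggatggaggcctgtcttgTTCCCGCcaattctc

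The motifs were counted in windows from 250 bases before to 50 bases after the RefSeq start, over both strands, and none of the motifs searched contains another. Of the 21 mitosis genes with a window, 17 held the cell cycle homology region, 81.0%, beside 15.9% of 10387 measured genes with a window. The CCAAT box was in 17 of the 21, 81.0%, beside 43.6%. The E2F letters were in 12 of 20 replication genes, 60.0%, beside 14.4%. A match of letters is a description and does not show that a factor binds there.

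The G1 regulators that EGF and FGF signalling acts on did not move as one. Of 18 measured cyclins of the D and E types, their kinases, E2F factors and RB proteins, 13 fell and 1 rose in iKO, with a median of -1.78, and 12 fell and 1 rose in Ctrl, with a median of -2.19. Of the 13 that fell in iKO, 1 passed the minimum only through day 0. Over all measured genes 11.4% fell in iKO and 15.0% in Ctrl. Ccnd1, the D cyclin driven by growth factors, went from 3217 to 312 CPM in iKO and from 2691 to 154 CPM in Ctrl. Ccnd2 stood at 2012 and 1127 CPM in iKO, a log2 ratio of -0.84, and its log2 ratio in Ctrl was -2.48. The E2F repressors E2f8 and E2f7 and the cyclin Ccne2 had the largest falls, -3.79, -3.54 and -3.44. The member that rose was Rbl2, the RB relative p130 of resting cells, from 46.0 to 113 CPM in iKO and from 45.6 to 93.4 CPM in Ctrl.

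Targets of ERK, the kinase downstream of both withdrawn factors, fell in iKO in 3 of 14 cases, beside 11.4% of all measured genes. In Ctrl 5 of the 14 fell, beside 15.0%. The median log2 ratio was -0.17 in iKO and -0.63 in Ctrl. Those that fell in iKO were Ccnd1, the feedback inhibitor Spry4 (340 to 66.1 CPM) and Phlda1 (53.6 to 12.5 CPM). The ERK phosphatase Dusp6 stood at 438 and 240 CPM in iKO, a log2 ratio of -0.87, and had a log2 ratio of -2.51 in Ctrl. The ETS factors Etv4 and Etv5, which ERK signalling induces, had log2 ratios of -0.16 and 0.08 in iKO and of -0.98 and -0.58 in Ctrl. Of 13 immediate early genes 6 fell in iKO and 7 in Ctrl, medians -0.82 and -1.20. Of the 6 in iKO, Egr3 (6.79 to 0.901 CPM) passed the minimum only through day 0. Egr1, which serum and growth factors switch on within minutes, went from 245 to 36.0 CPM in iKO and from 265 to 16.1 CPM in Ctrl.

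Of 10 measured receptors and ligands of both factor families 5 rose and none fell in iKO, median 1.02, beside 11.4% of all genes that rose. In Ctrl 2 rose and 1 fell, median 0.77. Erbb4, the neuregulin receptor, went from 9.18 to 64.6 CPM in iKO and from 9.94 to 227 CPM in Ctrl. Fgfr3, an FGF receptor of astrocyte precursors, went from 128 to 439 CPM in iKO and from 183 to 326 CPM in Ctrl, and Fgfr2 from 52.8 to 163 CPM in iKO. Egfr itself stood at 275 and 427 CPM in iKO, below the 2-fold mark.

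The factor p53 activates genes that arrest or kill damaged cells. Of 30 measured targets 7 fell and 1 rose in iKO, median -0.38, and 17 fell and 2 rose in Ctrl, median -1.33. Calls in either direction made up 22.8% of all measured genes in iKO and 29.2% in Ctrl. Cdkn1a, the CDK inhibitor p21 (chromosome 17, 29090979 to 29100722), stood at 926 and 578 CPM in iKO, and at 513 and 43.1 CPM in Ctrl. Within iKO it was 1.60-fold lower at day 3 (1.56 to 1.64), short of the 2-fold mark, and it was higher in iKO than in Ctrl at both days. The ratio of the iKO ratio to the Ctrl ratio was 7.43 (6.91 to 7.996).

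Psrc1, a spindle protein that p53 regulates, went from 194 to 91.6 CPM in iKO and from 148 to 7.06 CPM in Ctrl. Ddit4l, a stress gene that restrains mTORC1, stood at 116 and 147 CPM in iKO and went from 83.7 to 12.5 CPM in Ctrl. Ccng1, cyclin G1, had log2 ratios of -0.23 in iKO and -1.67 in Ctrl, and the p53 ubiquitin ligase Mdm2 -0.36 and -0.60. The largest falls of the list in iKO were Ckap2 (289 to 54.5 CPM), Gtse1 (160 to 37.2 CPM) and the stress cytokine Gdf15 (22.2 to 5.72 CPM), and the first pair are mitotic spindle proteins. The member that rose was Sesn1, sestrin 1, from 27.2 to 61.1 CPM in iKO and from 26.1 to 60.8 CPM in Ctrl. Of 7 CDK inhibitors 2 fell and none rose in iKO: Cdkn2c (81.4 to 23.2 CPM) and Cdkn2d (27.8 to 12.8 CPM). Falls made up 11.4% of all measured genes in iKO. Cdkn1c, p57, had a log2 ratio of -0.03 in iKO and 2.34 in Ctrl.

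**Figure D2:**
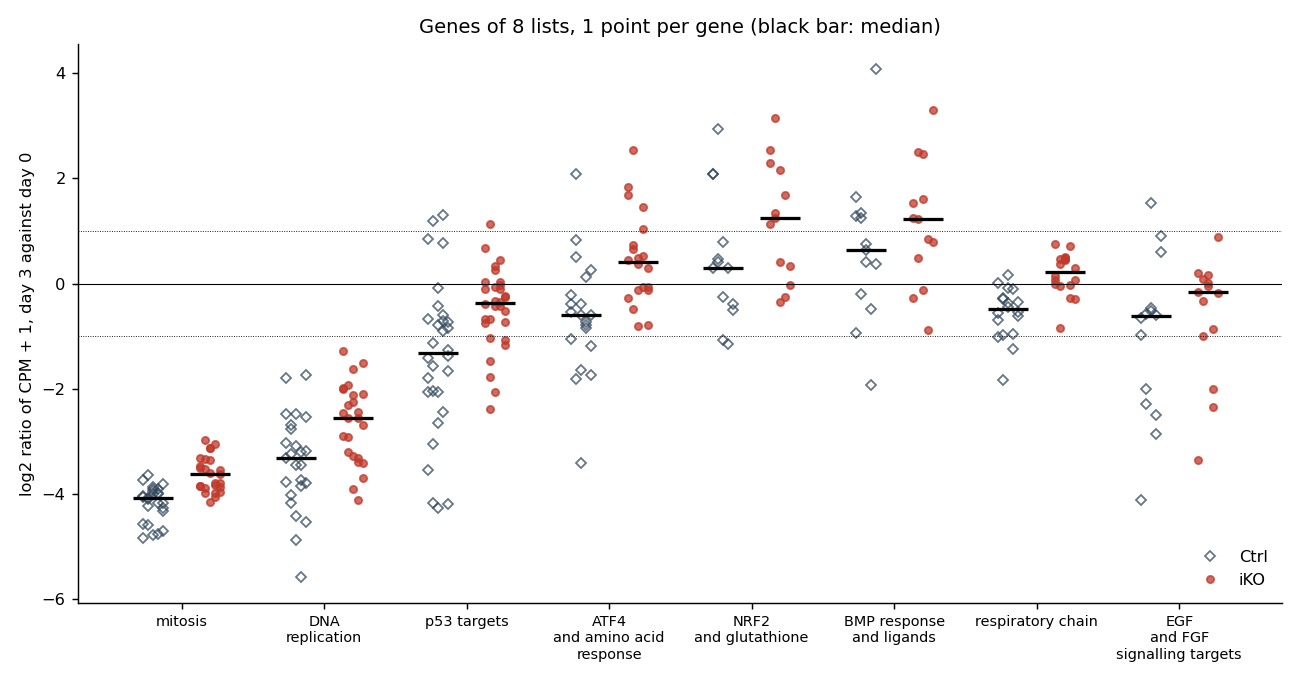
Each point is 1 gene of the list named below it, with its log2 ratio of CPM + 1 at day 3 to day 0 in Ctrl (open diamonds) and iKO (filled circles), and the black bar is the list's median. All mitosis and replication points lie below -1 in both genotypes, and the p53, ATF4 and respiratory chain points lie higher in iKO than in Ctrl by their medians (-0.38 against -1.33, 0.40 against -0.60 and 0.22 against -0.49).

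Of 18 ribosome biogenesis genes 15 fell and none rose in iKO, median -1.33, beside 11.4% of all measured genes that fell, and 17 fell in Ctrl, median -1.68. Nop58, Fbl and Nop56, core proteins of the complexes that methylate ribosomal RNA, went from 97.7 to 22.2, from 139 to 33.4 and from 142 to 34.7 CPM in iKO. Utp20, Pes1 and Rrs1 were not called, at -0.90, -0.80 and -0.60. Of the 10 Y complex genes 5 fell in iKO and 6 in Ctrl, medians -0.89 and -1.27. Falls made up 11.4% of all measured genes in iKO and 15.0% in Ctrl. Nup43, Nup107 and Nup85, partners of Seh1 in that complex, were 4.12-fold (3.28 to 5.22), 3.07-fold (2.69 to 3.52) and 2.87-fold (2.60 to 3.18) lower in iKO. Of 20 other nucleoporins 6 fell in iKO and 12 in Ctrl, led in iKO by Nup210, Nup205 and Nup62.

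The nuclear lamina list had 7 falls among 11 genes in each genotype, medians -1.18 in iKO and -1.69 in Ctrl. Among all measured genes 11.4% fell and 11.4% rose in iKO, and 15.0% fell in Ctrl. Lmnb1, lamin B1, went from 257 to 27.1 CPM in iKO, 9.49-fold lower (8.67 to 10.4), and from 478 to 80.7 CPM in Ctrl. Lbr, the lamin B receptor, went from 54.6 to 8.06 CPM and Tmpo, a lamina-associated protein, from 285 to 71.1 CPM in iKO. In the list of Polycomb and DNA methylation genes 4 of 12 fell and 1 rose in iKO. Uhrf1, which guides maintenance methylation, went from 210 to 14.8 CPM, the maintenance methylase Dnmt1 from 253 to 59.1 CPM and the Polycomb methylase Ezh2 from 108 to 26.3 CPM. Its relative Ezh1 rose from 9.13 to 19.3 CPM in iKO.

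Of 16 measured astrocyte markers 13 rose and none fell in iKO, with a median log2 ratio of 2.97, and 13 rose and 1 fell in Ctrl, with a median of 3.14. Of all measured genes 11.4% rose in iKO. The summed level of the list went from 3160 to 26833 CPM in iKO and from 1925 to 16159 CPM in Ctrl. It was higher in iKO than in Ctrl at both days. Gfap, the intermediate filament of astrocytes, had a log2 ratio of 3.43 in iKO, from 17.1 to 194 CPM, and of 5.03 in Ctrl. Glul, glutamine synthetase, and Clu, the secreted chaperone clusterin, had 3.41 and 3.40 in iKO. Gjb6 (0.367 to 21.4 CPM in iKO) passed the minimum only through day 3.

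The 3 astrocyte markers that were not called in iKO were Cd44, Id3 and Aldh1l1. Aldh1l1, a folate enzyme used as an astrocyte marker, stood at 311 and 567 CPM in iKO and went from 201 to 797 CPM in Ctrl. Cd44, a hyaluronan receptor, stood at 93.9 and 49.3 CPM in iKO and went from 86.2 to 11.9 CPM in Ctrl. Among 14 genes of reactive astrocytes 7 rose and 1 fell in iKO, median 0.96, and 5 rose and 3 fell in Ctrl, median 0.63. The shares over all measured genes were 11.4% and 11.4% in iKO, and 14.3% and 15.0% in Ctrl. Of the 7 that rose in iKO, 2, Gbp2 and Steap4, passed the minimum only through day 3. C4b, the sphingosine phosphate receptor S1pr3 (4.77 to 83.3 CPM) and the oncostatin M receptor Osmr (2.39 to 34.3 CPM) led in iKO. Timp1, an inhibitor of metalloproteases, was the one that fell, from 5.51 to 1.22 CPM.

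**Figure D3:**
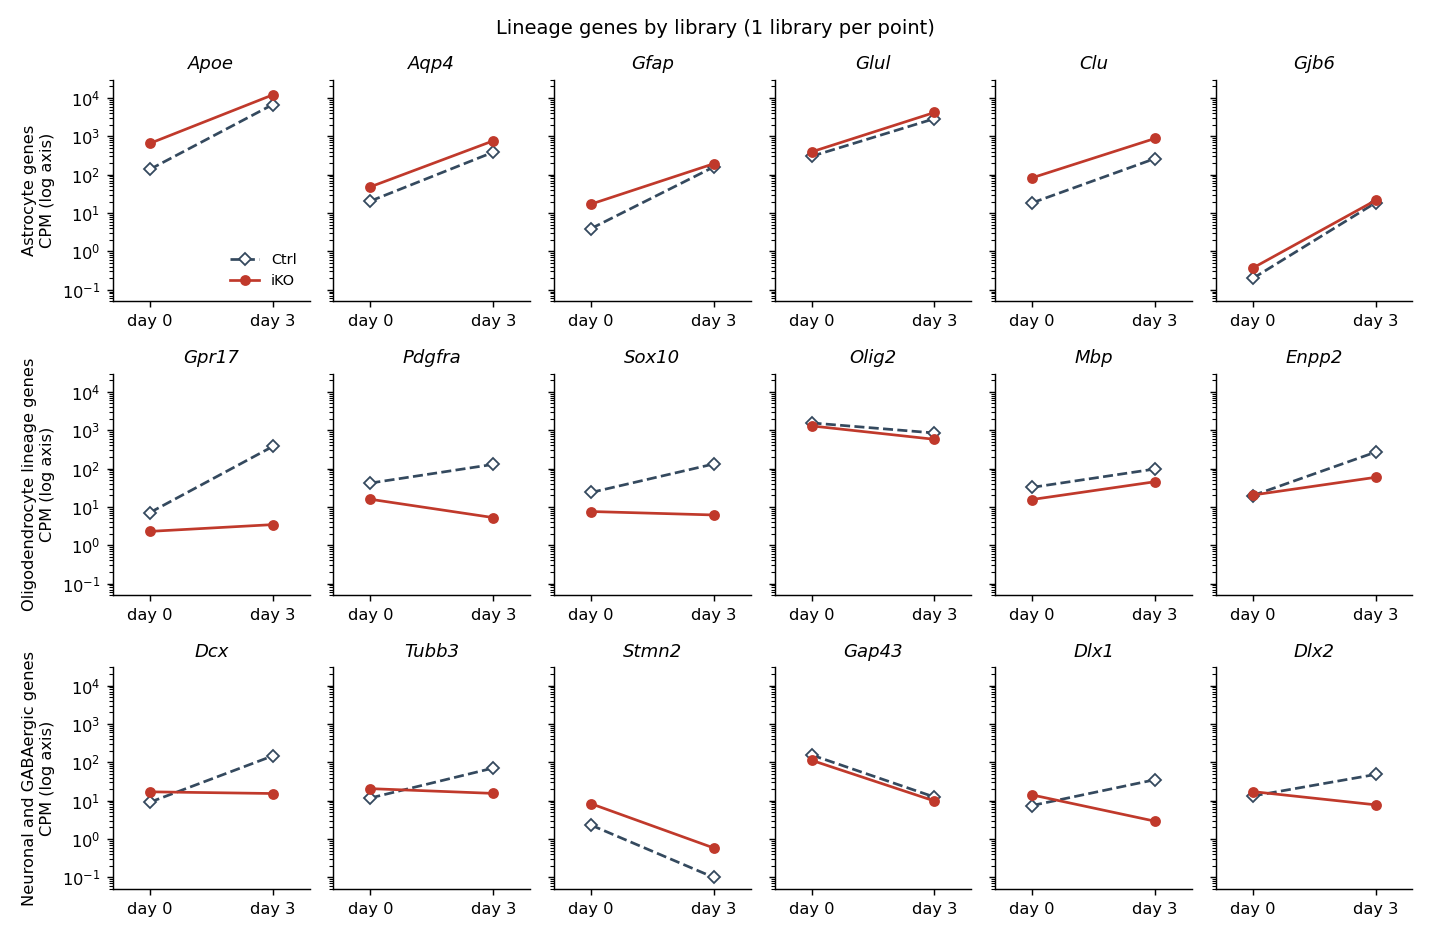
Each panel plots 1 gene's CPM on a log axis at day 0 and day 3, with 1 library per point, in Ctrl (open diamonds, dashed) and iKO (filled circles, solid). The astrocyte genes of the top row climb in both genotypes, whereas Gpr17, Sox10, Dcx, Tubb3, Dlx1 and Dlx2 climb past 2-fold in Ctrl and do not in iKO.

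The metallothioneins, small proteins that bind zinc and copper and are abundant in astrocytes, rose in all 3 cases in both genotypes, median 3.21 in iKO and 2.62 in Ctrl. Among all measured genes 11.4% rose in iKO and 14.3% in Ctrl. Mt2 went from 132 to 1854 CPM in iKO, 14.02-fold higher (13.5 to 14.6), and from 81.4 to 1144 CPM in Ctrl. Mt1 went from 308 to 2855 CPM in iKO and from 238 to 1474 CPM in Ctrl, and Mt3 from 344 to 1253 CPM in iKO. The zinc importer Slc39a12, given above, was the gene with the second largest rise in iKO. Metal response elements share the core TGCACNC or TGCGCNC, which was in the window of 3 of 3 metallothionein genes and of 41.6% of measured genes, a common match. This motif was chosen after the values were seen. The 150 bases before the start of Mt2 (chr8:94172468-94172617, plus strand) in GRCm38.p6 are printed because it rose most, with the core on either strand in capitals.
Mt2: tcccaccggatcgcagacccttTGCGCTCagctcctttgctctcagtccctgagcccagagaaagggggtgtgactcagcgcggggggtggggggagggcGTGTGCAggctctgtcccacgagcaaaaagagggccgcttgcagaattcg

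Many antioxidant genes rose in iKO. Of 13 measured targets of NRF2, the factor that induces glutathione synthesis and detoxification, 8 rose and none fell in iKO, median 1.25. In Ctrl 3 rose and 2 fell, median 0.30. Of all measured genes 11.4% rose in iKO, and 14.3% rose and 15.0% fell in Ctrl. Gstm1, a glutathione transferase, went from 729 to 6515 CPM in iKO and from 343 to 2648 CPM in Ctrl. Slc7a11, the cystine importer, went from 17.3 to 106 CPM in iKO and from 13.1 to 59.1 CPM in Ctrl. Hmox1, heme oxygenase, went from 85.2 to 383 CPM in iKO, a log2 ratio of 2.15, and had 0.78 in Ctrl. Nqo1, a quinone reductase, went from 23.4 to 77.3 CPM in iKO and had a log2 ratio of 0.30 in Ctrl. Fth1, the ferritin heavy chain, which was not on the list, went from 897 to 3554 CPM in iKO and from 657 to 1131 CPM in Ctrl.

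Stem and progenitor markers did not fall as a group. Of 16 genes 4 rose and 1 fell in iKO, median 0.53, and 3 rose and 4 fell in Ctrl, median 0.45. Among all measured genes 11.4% rose and 11.4% fell in iKO, and 14.3% rose and 15.0% fell in Ctrl. Nes, the intermediate filament nestin, fell from 663 to 165 CPM in iKO and from 849 to 235 CPM in Ctrl. Sox2 stood at 350 and 491 CPM and Vim, vimentin, at 3418 and 2156 CPM in iKO, both short of the 2-fold mark. The members that rose most were Slc1a3, a glutamate transporter shared with astrocytes (1709 to 5834 CPM), the Notch target Hes5 and the RNA-binding protein Msi1 (105 to 258 CPM). Hes5 went from 3.95 to 15.1 CPM in iKO and from 9.05 to 111 CPM in Ctrl.

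BMP signals push neural stem cells towards astrocytes through the Id proteins. Of 13 measured BMP genes 7 rose and none fell in iKO, median 1.22, and 5 rose and 1 fell in Ctrl, median 0.63. Rises made up 11.4% of all measured genes in iKO and 14.3% in Ctrl. Id4 went from 5.37 to 61.6 CPM in iKO and from 2.90 to 64.9 CPM in Ctrl. Id1 and Id2 had log2 ratios of 1.22 and 1.61 in iKO and of -0.20 and 0.63 in Ctrl. Smad9, a transducer of BMP receptors, went from 4.31 to 28.3 CPM in iKO and from 3.25 to 6.12 CPM in Ctrl. Bmp2, a ligand, went from 0.367 to 6.78 CPM in iKO and passed the minimum only through day 3.

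Of 13 Notch genes 4 rose and 2 fell in iKO, median 0.25, and 8 rose and 2 fell in Ctrl, median 1.16. The median in iKO was -0.24 when genes under the minimum were counted as well. Across all measured genes 11.4% rose and 11.4% fell in iKO, and 14.3% rose and 15.0% fell in Ctrl. Notch2 (62.0 to 198 CPM) and the target Hey1 (23.6 to 66.9 CPM) led the rises in iKO. The ligands Jag2 (3.44 to 0.689 CPM) and Dll3 (62.8 to 29.9 CPM) were the ones that fell, and Dll3 rose in Ctrl, from 87.9 to 198 CPM. Jag2 passed the minimum only through day 0. Of 10 genes of ependyma and motile cilia 5 rose in iKO and 3 in Ctrl, medians 0.97 and 0.73. Foxj1, the master regulator of motile cilia, went from 103 to 266 CPM in iKO and had a log2 ratio of 0.41 in Ctrl. The other 4 that rose in iKO, among them Cfap126, Dnah9 and Tekt1, stood at 10.1 CPM or less at day 3, and 3 of them, Dnah9, Tekt1 and Tekt4, passed the minimum only through that day.

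Of 10 genes of oligodendrocyte precursors 2 rose and 3 fell in iKO, median -0.39, and 6 rose and none fell in Ctrl, median 1.53. Across all measured genes 11.4% rose and 11.4% fell in iKO, and 14.3% rose and 15.0% fell in Ctrl. Gpr17, a receptor of committed precursors, stood at 2.29 and 3.45 CPM in iKO, a ratio of 1.502 (1.02 to 2.22), and went from 7.08 to 376 CPM in Ctrl. Pdgfra, the receptor that defines precursors, fell from 15.8 to 5.25 CPM in iKO and rose from 41.8 to 128 CPM in Ctrl. Sox10, the lineage factor, stood at 7.57 and 6.15 CPM in iKO and had a log2 ratio of 2.42 in Ctrl.

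At day 0 these 3 genes already stood lower in iKO than in Ctrl. The members that rose in iKO were Bcan and Ptprz1, matrix and receptor genes that astrocytes also express, and those that fell with Pdgfra were Cspg4, the NG2 proteoglycan (123 to 33.6 CPM), and Olig2 (1292 to 578 CPM). Olig1 stood at 2648 and 2717 CPM. Of 10 myelin genes 3 rose and none fell in iKO, median 0.09, and 9 rose in Ctrl, median 1.64. The iKO median was -0.02 when scaled by library totals. Rises made up 11.4% of all measured genes in iKO and 14.3% in Ctrl. Mbp, myelin basic protein, went from 15.6 to 45.3 CPM in iKO and from 32.3 to 97.1 CPM in Ctrl. Enpp2, autotaxin, went from 20.3 to 59.0 CPM in iKO and from 19.7 to 267 CPM in Ctrl.

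Of 16 genes of intermediate progenitors and young neurons 1 rose and 6 fell in iKO, median -0.55, and 6 rose and 2 fell in Ctrl, median 0.73. The shares over all measured genes were 11.4% and 11.4% in iKO, and 14.3% and 15.0% in Ctrl. Of the 6 that fell in iKO, 2, Neurod1 and Stmn2, passed the minimum only through day 0. Dcx, the doublecortin of migrating neurons, stood at 17.0 and 15.4 CPM in iKO, 1.11-fold lower (0.947 to 1.296), and went from 9.10 to 147 CPM in Ctrl. Tubb3, neuronal tubulin, had a log2 ratio of -0.39 in iKO and 2.50 in Ctrl. At day 0 both genes were higher in iKO than in Ctrl. Gap43, a growth cone protein, fell in both genotypes, from 113 to 9.81 CPM in iKO and from 156 to 12.4 CPM in Ctrl.

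Of 5 measured genes of the GABAergic lineage none rose and 2 fell in iKO, median -0.996, and 4 rose in Ctrl, median 1.79. The list held 9 genes, and the minimum was set by the iKO libraries alone. With a pseudocount of 5 CPM the iKO median was -0.495. Across all measured genes 11.4% fell in iKO and 14.3% rose in Ctrl. Dlx1, a homeodomain factor of interneuron progenitors, went from 14.1 to 2.92 CPM in iKO, 4.85-fold lower (3.63 to 6.58), and from 7.48 to 35.2 CPM in Ctrl. Its neighbour Dlx2 went from 17.3 to 7.79 CPM in iKO and from 13.2 to 48.3 CPM in Ctrl. Gad1, which makes GABA, stood at 33.1 and 41.2 CPM in iKO and went from 13.1 to 52.5 CPM in Ctrl.

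Of 18 measured genes of the synapse and of secretion 4 rose and 5 fell in iKO, median -0.25, and 9 rose and 4 fell in Ctrl, median 1.23. The shares over all measured genes were 11.4% and 11.4% in iKO, and 14.3% and 15.0% in Ctrl. Shisa9 and its receptor subunit Gria1 (37.7 to 176 CPM in iKO and 9.59 to 55.8 CPM in Ctrl) rose in both genotypes, as did the granin Scg3. Rab26, Nptx1 and the neuropeptide precursor Vgf fell in both. Vgf (5.18 to 0.954 CPM in iKO) passed the minimum only through day 0. Grik3, a kainate receptor subunit, stood at 12.4 and 5.83 CPM in iKO and went from 20.8 to 144 CPM in Ctrl. In the extracellular matrix list 6 of 16 rose and 1, Tnc, fell in iKO, median 0.56. Its paralog Tnr, tenascin R, which oligodendrocyte lineage cells make, stood at 54.7 and 33.1 CPM in iKO and went from 70.6 to 751 CPM in Ctrl. Itgb8, an integrin that activates TGF-beta (55.6 to 217 CPM), the thrombospondin Thbs1 (14.4 to 53.5 CPM) and the matrix link protein Hapln1 led the rises in iKO.

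**Figure D4:**
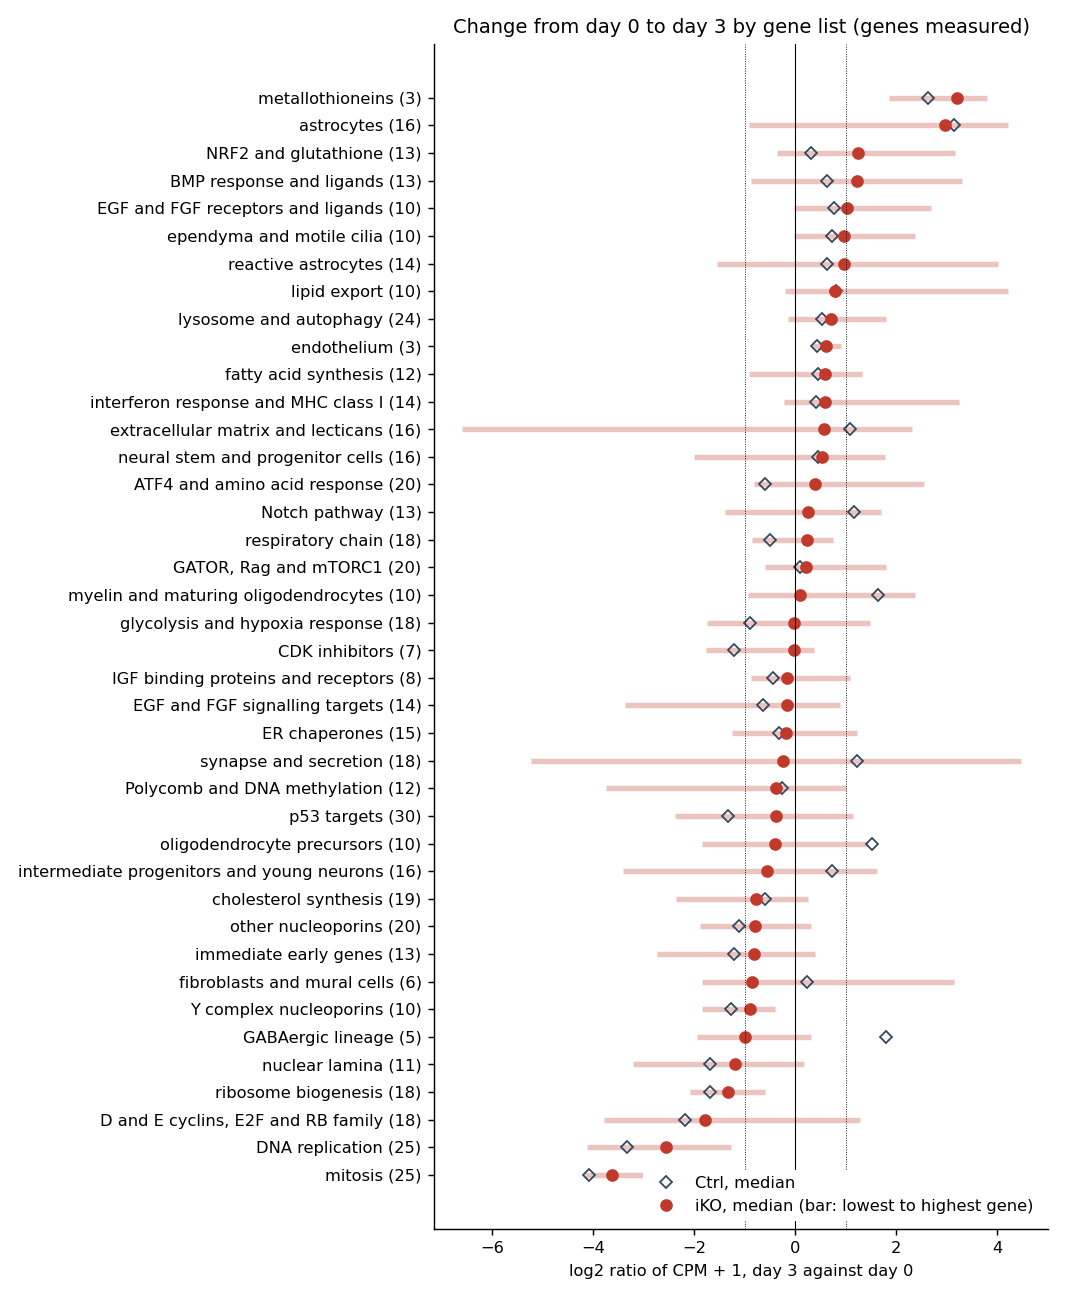
Each row is 1 gene list with the number of measured genes in brackets, and the horizontal axis is the log2 ratio of CPM + 1 at day 3 to day 0, with filled circles for the iKO median, bars for its lowest and highest gene, and diamonds for the Ctrl median. Dotted lines mark 2-fold: in iKO 5 lists had a median of at least 1 and 5 a median of at most -1, of which the EGF and FGF and the BMP lists fall within 1 under some alternatives, and the GABAergic, precursor, neuron and synapse lists have the Ctrl diamond to the right of 0 and the iKO circle to the left.

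Of 19 measured cholesterol synthesis genes 5 fell and none rose in iKO, median -0.77, where 11.4% of all measured genes fell, and 2 fell in Ctrl, median -0.59. The synthesis enzyme Fdps went from 181 to 51.5 CPM in iKO and from 335 to 124 CPM in Ctrl, and Idi1 from 37.0 to 10.97 CPM in iKO. The sterol element CACCCCAC was in 1 of 13 windows, 7.7%, beside 3.7% of measured genes. Of 10 lipid export genes 4 rose and none fell in iKO and 5 rose in Ctrl, medians 0.79 and 0.82. Rises made up 11.4% of all measured genes in iKO and 14.3% in Ctrl. Abca1, the cholesterol exporter that loads Apoe, went from 144 to 771 CPM in iKO and from 25.8 to 353 CPM in Ctrl. Of 12 fatty acid genes 3 rose and none fell in iKO, among them the desaturases Scd2 (3636 to 9120 CPM) and Fads2 (341 to 798 CPM).

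Of 18 glycolysis and hypoxia genes 2 rose and 3 fell in iKO, median -0.02, and 1 rose and 7 fell in Ctrl, median -0.89. Beside these stand 11.4% that rose and 11.4% that fell over all measured genes in iKO, and 14.3% and 15.0% in Ctrl. Ldha, lactate dehydrogenase, fell from 554 to 164 CPM in iKO and from 662 to 94.1 CPM in Ctrl, and Slc2a1, the glucose transporter, rose from 70.9 to 201 CPM in iKO and stood at 63.4 and 84.7 CPM in Ctrl. Of 18 respiratory chain genes none was called in iKO, where 22.8% of all measured genes were, median 0.22 with 12 above 0, and 3 fell in Ctrl, median -0.49. Cycs, cytochrome c, had the lowest ratio in iKO, -0.85, and Ndufs1 of complex I the highest, 0.75.

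Of 24 measured lysosome genes 23 lay above 0, 6 rose and none fell in iKO, median 0.72, and 5 rose in Ctrl, median 0.53. Above 0 were 49.8% of all measured genes in iKO. The shares that rose were 11.4% in iKO and 14.3% in Ctrl. Psap, the precursor of the saposins that help degrade sphingolipids, went from 1153 to 3994 CPM in iKO, 3.46-fold higher (3.41 to 3.51), and from 840 to 1842 CPM in Ctrl. Lamp2, a lysosomal membrane protein, went from 194 to 519 CPM in iKO and the protease Ctsb from 348 to 889 CPM. Tfeb, the factor that drives lysosome genes, stood at 10.5 and 21.0 CPM in iKO, a log2 ratio of 0.94.

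The palindrome TCACGTGA, known as the CLEAR element that Tfeb binds, was in the windows of 5 of 19 lysosome genes, 26.3%, beside 2.1% of measured genes. Ctsd, the gene of the protease cathepsin D, is one of them and was not called, with a log2 ratio of 0.94. Its 150 bases before the start are printed to show the palindrome in capitals, from chr7:142387828-142387977 on the minus strand of GRCm38.p6.
Ctsd: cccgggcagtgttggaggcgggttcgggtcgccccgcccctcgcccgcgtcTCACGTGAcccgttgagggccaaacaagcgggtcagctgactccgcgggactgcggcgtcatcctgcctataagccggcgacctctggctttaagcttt

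Of 20 measured genes of GATOR, the Rag GTPases and mTORC1, 3 rose and none fell in iKO, median 0.21, and 2 rose in Ctrl, median 0.09. Rises made up 11.4% of all measured genes in iKO and 14.3% in Ctrl. Sesn3 (26.7 to 94.5 CPM) and Sesn1 encode sestrins, which hold GATOR2 back, and Rragd (36.1 to 79.5 CPM) a Rag GTPase. GATOR2 partners of Seh1 stayed within 2-fold in iKO: Mios at -0.22, Wdr24 at 0.24, Wdr59 at 0.48 and Sec13 at -0.59 on the log2 scale.

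Targets of ATF4, the factor switched on when amino acids run short, went upward in iKO by 5 calls of 20 with none downward, median 0.40, and downward in Ctrl by 6 calls with 1 upward, median -0.60. Of the 5 that rose in iKO, 1 passed the minimum only through day 3. Across all measured genes 11.4% rose in iKO and 15.0% fell in Ctrl. Slc3a2, the heavy chain of amino acid exchangers, went from 303 to 982 CPM in iKO and stood at 275 and 209 CPM in Ctrl. Chac1, which degrades glutathione, went from 3.44 to 14.9 CPM in iKO and stood at 2.26 and 1.79 CPM in Ctrl. Atf5, a related factor, went from 69.2 to 192 CPM in iKO and had a log2 ratio of -0.73 in Ctrl. Mthfd2, a mitochondrial folate enzyme, stood at 43.1 and 24.2 CPM in iKO and fell from 59.8 to 4.68 CPM in Ctrl.

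ER chaperones, another stress group, had 1 rise (Dnajb9) and 1 fall (Sdf2l1) among 15 genes in iKO, median -0.18. Of 14 interferon genes 2 rose and none fell in iKO, median 0.59, where 11.4% of all measured genes rose. Ifit3, which interferon induces, went from 1.15 to 19.4 CPM in iKO and from 0.787 to 4.78 CPM in Ctrl, and Irf9 from 9.82 to 21.3 CPM in iKO. Of 8 measured IGF binding proteins and receptors 1 rose and none fell in iKO, and 3 fell in Ctrl. Igfbp5 was the one that rose, from 60.5 to 129 CPM. Igfbp3, the main carrier of IGF, stood at 1551 and 1549 CPM in iKO and had a log2 ratio of -2.05 in Ctrl.

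Among microglia markers only P2ry12 was measured, at 8.63 and 1.27 CPM in iKO. In iKO Ptprc was at 0 at both days, Aif1, C1qa, C1qb and Tmem119 were at 0 at day 0, and Csf1r and Cx3cr1 did not exceed 0.318 CPM. Of the endothelial markers Vwf, Flt1 and Kdr were measured, none was called, and their summed level was 4.68 CPM at most in any library at day 0 and 6.41 CPM in iKO at day 3, unmeasured members included. Of 6 genes of fibroblasts and mural cells 1 rose and 2 fell in iKO: Ogn (3.12 to 35.5 CPM, against 0.590 and 1.74 CPM in Ctrl), Col1a1 (3.95 to 0.424 CPM) and Cspg4, which precursors share. Col1a1 passed the minimum only through day 0. The summed level of that list was 151 and 81.3 CPM in iKO and 130 and 117 CPM in Ctrl. Their part in the results above was not tested.

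The size of the change differed between genotypes by at least 1 on the log2 scale for 486 genes in the direction of iKO (3.74% of those measured) and for 675 in the direction of Ctrl (5.19%). Scaled by library totals these counts were 302 and 922, and from the deposited FPKM 218 and 597. None of these differences has a replicate check. Apln, the secreted peptide apelin, had the largest difference upward, 3.63: it fell from 235 to 42.2 CPM in iKO and from 278 to 3.13 CPM in Ctrl. Anxa3, an annexin, fell from 315 to 27.7 CPM in iKO and from 332 to 2.84 CPM in Ctrl. Cpne8, a copine, stood at 13.0 and 22.3 CPM in iKO and fell from 53.4 to 11.99 CPM in Ctrl. Its deposited FPKM was 9.15 and 14.63 in iKO and 26.41 and 12.29 in Ctrl, a smaller fall. Psrc1, Ddit4l, Cdkn1a and Mthfd2, given above, are also among the 8 largest. Ahcy, with many near-identical copies in the genome, is uncertain.

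Downward, Gpr17 had the largest difference, -5.11, and its ratio in Ctrl was 35.3 times that in iKO (23.6 to 52.9). Scg2, secretogranin II, fell from 3.40 to 1.17 CPM in iKO and rose from 1.03 to 18.0 CPM in Ctrl. Celf3, a splicing factor of neurons, fell from 17.3 to 5.25 CPM in iKO and rose from 10.9 to 54.8 CPM in Ctrl. Tnr, Dlx1, Dcx and Grik3, given above, had differences of -4.10, -4.05, -4.02 and -3.71. Gm2007, a predicted gene of a family of near-identical copies, had 163 counts in the iKO library of day 0 and 0 in the Ctrl library of that day, and is uncertain.

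Per length, the most abundant RNAs of the iKO library at day 3 were Apoe at 9745 FPKM, the creatine kinase Ckb at 6311, Mt1 at 5344, Gstm1 at 4920 and Fth1 at 3720. Mt2, Mt3, the elongation factor Eef1a1, Gapdh and the lipid-binding protein Dbi followed, from 3382 down to 1798 FPKM. Of these 10 genes, Ckb, Eef1a1 and Gapdh were not called between the days. At day 0 Ckb stood at 4871 FPKM and Eef1a1 at 4258 FPKM.

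Shares of a gene's counts among its transcript models were compared in 6558 genes with at least 500 expected counts in both iKO libraries. More than 1 model was listed for 4897 of them that have a symbol, and a gene with 1 model cannot shift. At least 1 model moved by 30 percentage points or more in 490 genes, 7.47% of the 6558. Of these, 445 also had 500 counts in both Ctrl libraries, and the model moved in the same direction there in 344 of them but by 30 points in 102. For Shoc2, a scaffold of RAS signalling, 1 of 4 models took 97.3% at day 0 and 1.32% at day 3 in iKO, and 94.6% and 65.9% in Ctrl. For Plec, the cytoskeletal linker plectin, 1 of 6 models took 88.0% at day 0 and almost nothing at day 3 in iKO, and 84.5% and 40.3% in Ctrl. For Mier3 the leading model went from 92.2% to 0% in iKO and from 87.5% to 57.4% in Ctrl.

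Other large shifts set libraries of the same day apart. For Cnot6l, a deadenylase, 1 model took 80.6% in iKO and 0.245% in Ctrl at day 0. For Fam53c 1 model took 18.5% in iKO and 79.8% in Ctrl at day 0. For Tbc1d16, a Rab regulator, 1 model took 100% and 18.4% in iKO and 90.7% and 70.8% in Ctrl. Expected counts of models that share most of their exons are estimates with no interval, so these shares describe the deposited values only.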

How the data were processed

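Total RNA of primary cortical neural stem cells was sequenced in 4 libraries, 1 per group. Groups come from titles and the genotype field, and no label numbers a replicate.

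The files deposited by the authors list 55122 RefSeq transcripts for every library, each with an expected count (an estimate with decimals), per the file headers. The second deposited value has no unit in the header and was taken as FPKM, since the count divided by it and by the transcript length in kb was nearly constant within a library (medians from 19.65 to 21.12). HISAT, Bowtie2, StringTie and the mm10 build are named without versions, per the submitters' processing notes. Not given in the sources used here are the counting tool, annotation release, strand setting and filters.

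Expected counts were summed per gene (17621 genes, 17498 with a RefSeq symbol) and rounded. TMM factors over the 4 libraries came from edgeR 4.0.16 in R 4.3.3 and lay between 0.962 and 1.06. Genes were kept where both iKO libraries averaged 1 CPM or more, which left out 4609. The pseudocount was 1 CPM. Exact conditional 95% intervals of the ratio of counts were computed with scipy 1.17.1. The ratio of ratios has a log-normal counting interval. PCR reads without molecular identifiers are not independent molecules. The code was tested on simulated counts. No test between conditions was run, as each group has 1 library.

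Named genes are Seh1l, Esr1, Cdkn1a, the 12 largest ratios in each direction in iKO and the 3 largest members of each of 41 gene lists in each called direction. They also take the 8 largest differences between iKO and Ctrl in each direction, genes called in opposite directions, the 10 most abundant genes at day 3 and the 6 largest transcript shifts. Other list members in the text were picked for their role after values were seen. A few genes that the rule takes are not reported here. Of 610 listed symbols 608 were matched, 2 of them by synonym. The comparison, the lists and this rule were chosen with earlier results of these data known. Promoter windows come from RefSeq (GRCm38.p6), for 27025 genes.

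Alternatives were library totals, DESeq2 1.42.0 size factors, TMM over the iKO libraries alone or without ribosomal protein and histone genes, pseudocounts of 0.1 and 5 CPM, no minimum or one of 5 CPM, deposited FPKM, a call by the counting interval, and other transcript thresholds.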

Additional observations from a re-analysis of the deposited data

Results flagged for a closer look

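For 21 genes the level moved past 2-fold one way between day 0 and day 3 in iKO and past 2-fold the other way in Ctrl. With 1 library per group the difference was not tested. The call in iKO was lost for 15 of the 21 with a pseudocount of 5 CPM and for 18 under at least 1 alternative, while Celf3, Dlx1 and Pdgfra passed 2-fold in iKO under all of them. The call in Ctrl was not checked in this way. Values are the log2 ratio in iKO minus that in Ctrl.

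In 19 of them the gene fell in iKO and rose in Ctrl. Among them were secretogranin Scg2 (-4.24), the splicing factor Celf3 (-3.79), the vesicle GTPase Rab3c (-3.46), the cadherin Celsr3 (-3.44), the repressor Scrt1 (-3.44), the receptor Gpr158 (-2.78) and the synaptic adhesion protein Clstn3 (-2.26). By the deposited FPKM, Rab3c stood at 1.05 and 1.13 in Ctrl, short of the 2-fold mark. Iqsec3 (-2.90), Nacad (-2.89), Sh3gl3 (-2.72), Lzts1 (-2.42) and Gpr83 (-2.39) moved in the same way. Clstn3, Rab3c, Sh3gl3 and Gpr83 passed the minimum only through day 0. Their levels at day 3 in iKO were 0.848, 0.901, 0.795 and 0.954 CPM. Transcription factors of interneurons and of projection neurons on the list are Dlx1 (-4.05), Dlx2 (-2.84), Bcl11b (-2.70) and Sp9 (-2.65). Pdgfra (-3.02), the receptor of oligodendrocyte precursors, and the Notch ligand Dll3 (-2.21) fell in iKO as well. Gm14305 (-2.90), a predicted gene with near-identical copies, had 0 counts in the Ctrl library of day 0 and is uncertain.

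The other two rose in iKO and fell in Ctrl. Klhdc7a (2.24) went from 40.7 to 93.8 CPM in iKO and from 13.1 to 5.77 CPM in Ctrl. Gm29801 (2.53), a predicted gene with 63 counts or fewer in each library, had 0 counts in the Ctrl library of day 3.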

How the results depend on the processing

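No paired analysis was possible because each group has 1 library and the labels give no replicate numbers. Of 187 named genes 159 were called. Under the 9 alternatives of scaling, pseudocount, minimum and unit, 35 of these went below 2-fold at least once. Most of the 35 were genes of low level under a pseudocount of 5 CPM. The sign changed for 0 of the 159, an outcome largely fixed in advance. A pseudocount or minimum cannot change the sign of a gene's ratio. Library totals moved the median log2 ratio in iKO only to -0.13, and a call needs 1, so the unit alone could have changed a sign. Of 40 list medians 2 changed sign under some alternative, myelin and Notch. Of the 10 lists with a median past 2-fold in iKO, 8 stayed past it under all alternatives. The EGF and FGF receptors and ligands (median 1.02) went to 0.89 by library totals, 0.97 with a pseudocount of 5 CPM, 0.82 from FPKM and 0.70 with no minimum, and the BMP list (1.22) to 0.81 with that pseudocount.

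Genes higher at day 3 in iKO numbered 978 with a pseudocount of 5 CPM and 936 from the deposited FPKM. Genes rising more or falling less in iKO than in Ctrl numbered 302 by library totals, 229 with a pseudocount of 5 CPM and 218 from FPKM. Those falling more or rising less numbered 357 with that pseudocount and 439 with a minimum of 5 CPM, where fewer genes were compared (11229). A pseudocount of 5 CPM shrinks low genes by construction. Library totals shift the ratios of a genotype together, also by construction. The median log2 ratio went from -0.0038 to -0.13 in iKO and from -0.02 to 0.05 in Ctrl. For FPKM the cause was not tested. Where the whole counting interval had to lie beyond 2-fold, 1250 genes rose and 1257 fell. Genes with a transcript share shift numbered 105 with a minimum of 2000 counts, where 1799 genes were compared, and 1187 with a shift of 20 points. At 1 library per group the depth bounds counting error only, and the spread between cultures was not measured.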
